A study of Arabidopsis thaliana with 20 samples.

Results

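The effect of a brassinosteroid-deficient root was measured across 2 shoot genotypes in grafted Arabidopsis thaliana. All 20 libraries of the series were used: the 10 made from cpd roots were set against the 10 made from WT roots, with the shoot genotype as an additive term, so that each gene has 1 root effect averaged over both shoots. Grafts are written shoot/root. The cpd roots came from WT/cpd and cpd/cpd grafts and the WT roots from WT/WT and cpd/WT grafts, with 5 replicates in each and 3 whole roots pooled in a replicate. WT is the Col-0 strain, and cpd lacks normal function of CPD, an enzyme of brassinosteroid synthesis; the labels name no allele and no plant age. The titles of the cpd/cpd samples lack the word Grafted that the other titles carry, so a difference in grafting there could not be told apart from genotype. The labels do not say whether replicates came from separate sowings or grafting sessions, so p-values here reflect only how much these root pools varied, which may be technical.

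Brassinosteroids are plant steroid hormones that promote cell elongation and division. Cytochrome P450 enzymes such as DWF4, CPD, ROT3, CYP90D1, BR6OX1 and BR6OX2 make the active steroids from sterol precursors, other enzymes such as BAS1 inactivate them, and the receptor kinase BRI1 perceives them at the cell surface. Signalling ends at transcription factors of the BZR1 and BES1 family, which repress genes of hormone synthesis and regulate growth genes, and whose known binding motifs include CGTGTG and CGTGCG.

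Library totals ran from 13417029 to 29662209 counts in WT/cpd, from 22979686 to 32337043 in cpd/cpd, from 15892095 to 23942561 in WT/WT and from 22040458 to 28857374 in cpd/WT. The library least like the other 4 of its group was replicate 2 in WT/cpd, replicate 4 in cpd/cpd, replicate 4 in WT/WT and replicate 2 in cpd/WT. Leaf-type photosynthesis genes, measured as a sign of shoot tissue or greening, summed over 12 genes to between 873 and 1790 CPM (read counts scaled to library size) in WT/cpd and between 1126 and 2269 CPM in cpd/cpd, against 603 to 1159 CPM in WT/WT and 1196 to 2017 CPM in cpd/WT. The sum was thus lowest in WT/WT, and none of the 12 genes was called for the root genotype averaged over both shoots; its part in the results under the WT shoot was not tested.

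Of 20862 genes tested, 703 (3.37%) differed between cpd and WT roots over both shoots at an adjusted p under 0.05 (edgeR quasi-likelihood test, Benjamini-Hochberg adjustment), 346 higher (1.66%) and 357 lower (1.71%). A log2 fold change of 1 or more in size was seen for 73 of the higher and 33 of the lower genes. All 703 had the same sign under each shoot. The selection largely fixes this, since opposite effects cancel in an average over both shoots. Over all genes tested 44.2% had the same sign. To describe which of them changed alike, the log2 fold changes under the WT shoot (WT/cpd over WT/WT) and under the cpd shoot (cpd/cpd over cpd/WT) were set side by side, and a gene was counted as alike when the smaller was at least 0.5 times the larger. By this description 499 genes were alike (2.39% of genes tested), 237 of them higher (1.14%) and 262 lower (1.26%). The other 204 were uneven in size, 160 larger under the WT shoot and 44 larger under the cpd shoot. The median size of the alike genes was 0.57 on the log2 scale for the higher and -0.44 for the lower. Without the 4 least typical libraries named above, 3047 genes were called and 1842 were alike. They held 664 of the 703 and 424 of the 499, respectively. These libraries were picked for low agreement with their own group in these same counts. Leaving them out thus lowers the spread within groups by choice. The setting is no independent check, here or below. At the limits of these rules, PRR1 was just called (adjusted p = 0.0498) and LCD1 just not (0.0504), and the ratio of the smaller to the larger effect was 0.501 for AT5G03610, counted as alike, and 0.499 for TPP2, counted as uneven.

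**Figure D1:**
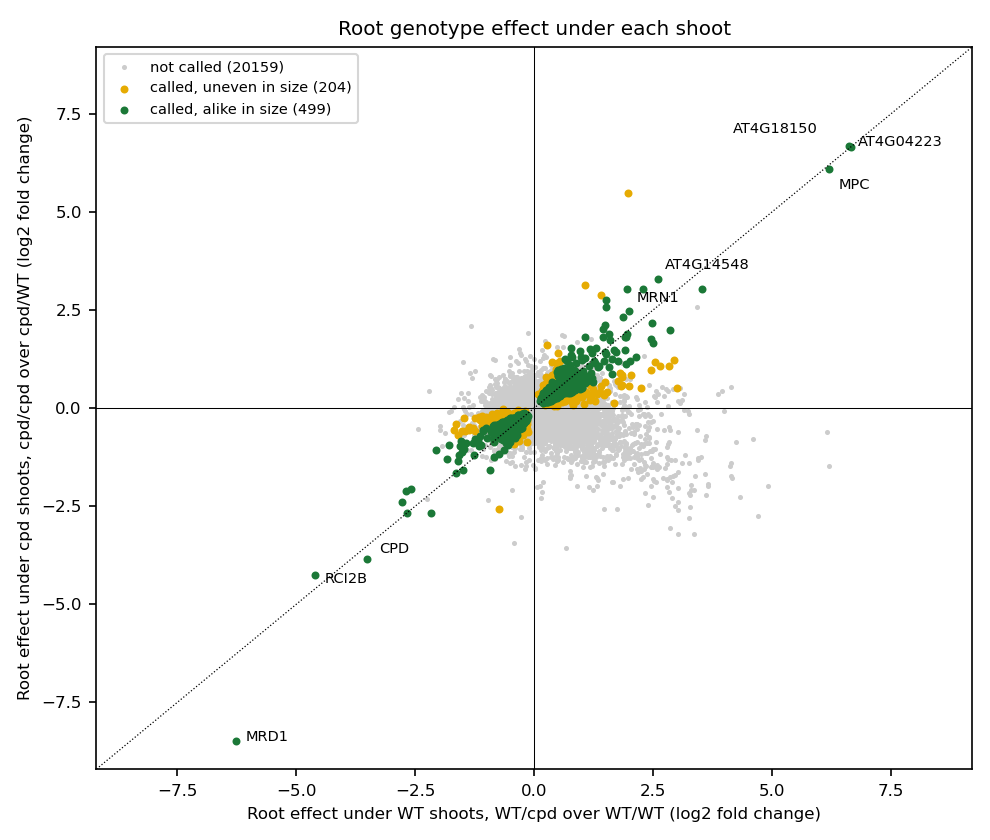
Each point is 1 of 20862 genes, placed by its log2 fold change of cpd over WT roots under WT shoots (horizontal axis) and under cpd shoots (vertical axis); green marks the 499 called genes that were alike in size, yellow the 204 called genes that were uneven, grey the rest, and the dotted line is equal size. The alike genes run along the line between MRD1 at the lower left and AT4G18150 and AT4G04223 at the upper right, while many uncalled genes spread along the horizontal axis.

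Tested under each shoot by itself, the root genotype changed 1972 genes (9.45%) under the WT shoot and 389 (1.86%) under the cpd shoot. The 2 comparisons share no library. Both called 125 genes, of which 96 (0.46% of genes tested) moved in the same direction, 53 higher and 43 lower, and 29 in opposite directions. The 96 were 4.87% of the WT-shoot calls and 24.7% of the cpd-shoot calls. Single libraries moved this count by over 1.5 times. Leaving out cpd/cpd replicate 1, 3 or 5 gave 44 genes, cpd/WT replicate 3 gave 40, cpd/WT replicate 4 gave 63 and WT/WT replicate 1 gave 62. Of the 499 alike genes, 195 were called under neither shoot alone. Across all genes tested the 2 sets of fold changes had a Pearson correlation of -0.1, and 44.2% had the same sign. The interaction, which tests whether the root effect differs between the shoots, was called for 1613 genes (7.73%), for 26 of the 703 and for none of the 499, a set chosen for similar sizes. Leaving out WT/cpd replicate 1, cpd/cpd replicate 5 or WT/WT replicate 1 brought the interaction count to 1060, 1067 and 1050.

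Separation by library was rarer than a call. In 49 genes (0.235% of genes tested) the 10 cpd-root libraries did not overlap the 10 WT-root libraries, all cpd roots being above in 30 (0.144%) and below in 19 (0.0911%). Of these, 45 were alike genes, 28 higher and 17 lower. They include CPD, DWF4, BR6OX2, BEH2, MYB56, CYP72C1 and ABCG2, which are described below with their groups.

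The mutated gene came first among the hormone genes. CPD (AT5G05690, chr5:1702640-1706948 in TAIR10.1, minus strand) had 4.47, 4.46, 4.14, 2.68 and 4.23 CPM in the WT/cpd libraries and 2.67, 2.38, 2.3, 3.86 and 2.98 CPM in the cpd/cpd libraries, against 44.3, 45.6, 47.5, 38.2 and 51.7 CPM in WT/WT and 44.4, 34.1, 39.2, 41.3 and 45.4 CPM in cpd/WT. All cpd roots were far below all WT roots, with a log2 fold change of -3.68 ± 0.11 (SE; adjusted p = 1.8e-15), a 12.8-fold lower level.

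The remaining synthesis enzymes split. DWF4 (AT3G50660), which catalyses the 22-hydroxylation that is regarded as rate-limiting, had 42.7, 34.9, 41.4, 57.3 and 43.1 CPM in WT/cpd and 44.8, 48.5, 43.1, 42.4 and 57.8 CPM in cpd/cpd, against 27.4, 20.2, 21, 30.2 and 27.2 CPM in WT/WT and 13.7, 23.7, 17.1, 19.6 and 22.4 CPM in cpd/WT. Every cpd-root library was above every WT-root library, and the fold was 2.07 (log2 1.05 ± 0.12, SE; adjusted p = 2.3e-05). BR6OX2 (AT3G30180), which makes castasterone and brassinolide in the last steps, had 35.6, 34.1, 37.2, 62.1 and 38.6 CPM in WT/cpd and 46, 47.8, 50.6, 34.6 and 46.6 CPM in cpd/cpd, against 23.2, 18.5, 21.8, 21.1 and 19 CPM in WT/WT and 20.4, 20.4, 21.7, 16 and 17.8 CPM in cpd/WT. It was 2.17-fold higher without overlap (adjusted p = 9.9e-07). CYP90D1 (AT3G13730), a C-23 hydroxylase, ranged from 35.8 to 58.6 CPM in cpd roots (median 51.3), against 19.5 to 38.9 CPM in WT roots (median 24.7). It was 1.85-fold higher (adjusted p = 4.3e-06), although the cpd/WT roots, at 33.1 ± 5.22 CPM (SD, n = 5), lay above the WT/WT roots at 21.2 ± 1.22 CPM.

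The other 3 of the 7 synthesis genes were not called. ROT3 (AT4G36380), a close relative of CYP90D1, had a log2 fold change of 0.22 ± 0.07 (SE; adjusted p = 0.082), made up of 0.40 under the WT shoot and 0.03 under the cpd shoot, and its interaction was called (edgeR adjusted p = 0.039). BR6OX1 (AT5G38970) had 0.44 ± 0.15 (adjusted p = 0.13) and DET2 (AT2G38050), the steroid 5-alpha-reductase, -0.08 ± 0.07 (adjusted p = 0.66). The 4 called members, which include the mutated gene CPD, were all alike, 3 of them higher and 1 lower. Over all genes tested, 1.66% were higher, 1.71% lower and 2.39% alike.

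Among 5 tested genes of hormone inactivation, 2 were called, both lower and alike, against 1.71% of all genes tested that were lower and 1.26% that were lower and alike. CYP72C1 (AT1G17060), a P450 that lowers active hormone levels, had 18.3, 19.1, 18.3, 19.7 and 17.2 CPM in WT/cpd and 16.8, 19.2, 16.1, 17.1 and 16.7 CPM in cpd/cpd, against 28.1, 28.9, 22.3, 29.3 and 30.6 CPM in WT/WT and 20.3, 25.3, 27, 21.1 and 22.8 CPM in cpd/WT. The groups did not overlap (log2 -0.51 ± 0.06, SE; adjusted p = 7.8e-05). BAS1 (AT2G26710), a C-26 hydroxylase, ranged from 9.74 to 17.1 CPM in cpd roots (median 13.8) and from 11.8 to 24.5 CPM in WT roots (median 18.3), with overlap (log2 -0.46 ± 0.10; adjusted p = 0.015). BIA1 at -0.31 ± 0.10, BEN1 at -0.09 ± 0.12 and DOGT1 at -0.89 ± 0.38 were not called (edgeR adjusted p = 0.090, 0.79 and 0.23). Without the 4 least typical libraries, 4 of these 5 genes were lower, with 3047 genes then called in all, against 703 with every library.

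Of 17 signalling genes 2 were called, both higher, alike and members of the BZR1 and BES1 family, against 1.66% of all genes tested that were higher. BEH2 (AT4G36780) had 116, 92.9, 95.9, 121 and 89.5 CPM in WT/cpd and 105, 94.4, 97.1, 80.2 and 100 CPM in cpd/cpd, against 66.5, 66.7, 66.4, 67.8 and 74.7 CPM in WT/WT and 63.8, 69, 74.4, 64.6 and 67 CPM in cpd/WT. The lowest cpd root stood above the highest WT root, at 1.46-fold overall (adjusted p = 2e-05). BEH1 (AT3G50750) was expressed at a low level, 1.57 to 3.42 CPM in cpd roots against 0.666 to 2.3 CPM in WT roots (log2 0.82 ± 0.20; adjusted p = 0.023), and its call was lost without WT/cpd replicate 4 (adjusted p = 0.052). The other 15 members were not called, among them the receptor BRI1 (0.21 ± 0.07), its co-receptor BAK1 (-0.10 ± 0.05), the kinase BIN2 (-0.03 ± 0.05), BZR1 (0.02 ± 0.07) and BES1 (0.12 ± 0.07). The median of the 17 was 0.02, against 0.01 for all genes tested.

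**Figure D2:**
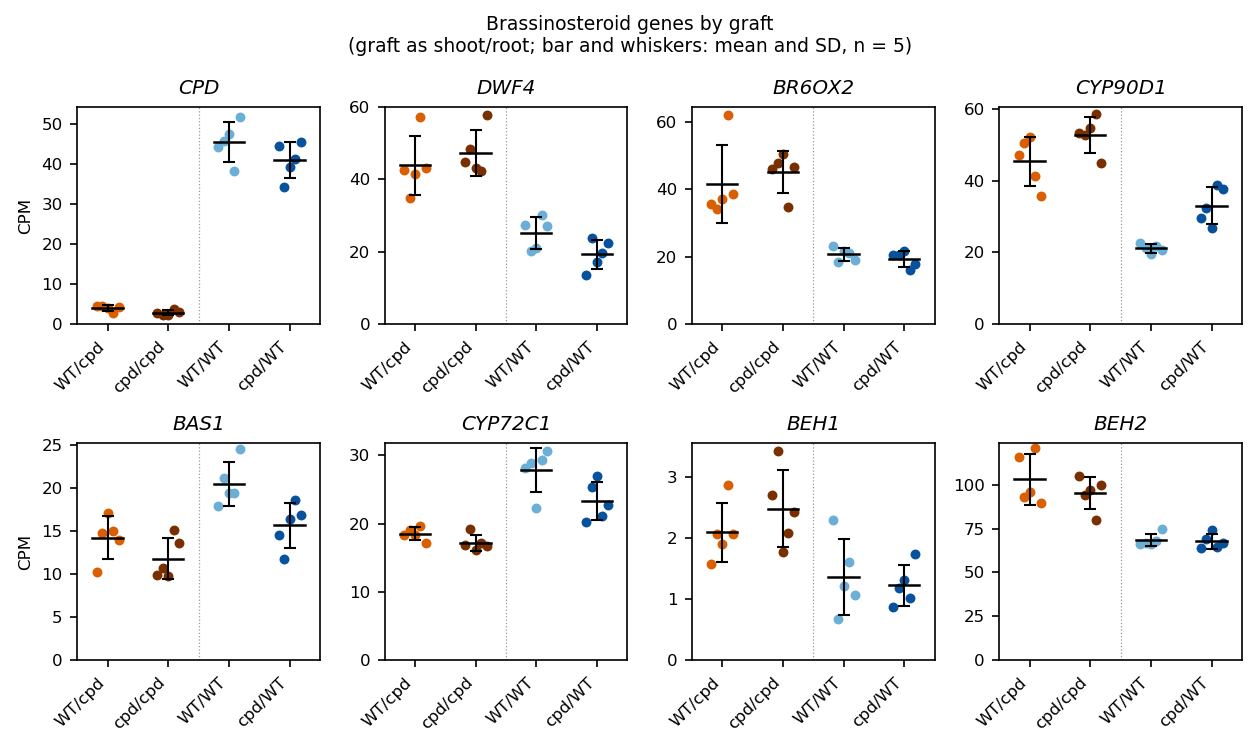
CPM of 8 brassinosteroid genes in each library, with cpd roots (WT/cpd, cpd/cpd) left of the dotted line and WT roots (WT/WT, cpd/WT) right of it; bars and whiskers are mean and SD of 5 libraries. CPD lies below 5 CPM in cpd roots and above 34 CPM in WT roots, DWF4, BR6OX2 and BEH2 separate upwards and CYP72C1 downwards, while BAS1, BEH1 and CYP90D1 overlap between root genotypes.

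Of the 10 tested hormone-responsive bHLH regulators, 1 was called, against 3.37% of all genes tested. KDR (AT1G26945, also PRE6) had 3.51 to 12.1 CPM in cpd roots and 2.6 to 6.25 CPM in WT roots (log2 0.95 ± 0.23; adjusted p = 0.026); the call was lost without WT/cpd replicate 4, WT/WT replicate 2 or cpd/WT replicate 3, with an adjusted p of up to 0.063. BEE1 had the lowest fold change of the list, -1.03 ± 0.29, and was just outside the threshold (edgeR adjusted p = 0.051).

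The upstream sequences of 4 alike genes, all higher in cpd roots, are shown. They were picked because 3 of them hold a motif of the BZR1 and BES1 family. The other, DWF4, is a gene of hormone synthesis with no match in its window. The sequences were chosen after the matches were seen. Each is the 250 bases before the annotated gene start (TAIR10.1, RefSeq), 5′ to 3′ on the gene's strand, with matches to CGTGTG or CGTGCG or CACGTG on either strand in capitals.
BEH2 (chr4:17334356-17334605, minus strand): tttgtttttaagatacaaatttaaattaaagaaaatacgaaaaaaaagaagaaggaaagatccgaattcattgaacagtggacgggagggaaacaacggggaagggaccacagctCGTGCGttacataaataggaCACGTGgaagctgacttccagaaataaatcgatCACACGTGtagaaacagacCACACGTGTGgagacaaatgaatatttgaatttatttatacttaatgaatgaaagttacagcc
MYB56 (chr5:5876863-5877112, plus strand): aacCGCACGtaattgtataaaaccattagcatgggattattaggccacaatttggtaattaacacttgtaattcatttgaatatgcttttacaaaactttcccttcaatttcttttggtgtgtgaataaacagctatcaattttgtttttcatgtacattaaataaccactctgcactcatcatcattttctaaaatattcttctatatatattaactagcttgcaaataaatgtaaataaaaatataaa
AT1G23160 (chr1:8208976-8209225, plus strand): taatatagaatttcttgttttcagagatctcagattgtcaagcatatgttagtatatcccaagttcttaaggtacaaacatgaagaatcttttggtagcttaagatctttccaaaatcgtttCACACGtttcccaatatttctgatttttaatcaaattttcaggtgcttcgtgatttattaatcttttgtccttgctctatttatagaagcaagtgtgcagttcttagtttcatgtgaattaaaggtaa
DWF4 (chr3:18817406-18817655, minus strand): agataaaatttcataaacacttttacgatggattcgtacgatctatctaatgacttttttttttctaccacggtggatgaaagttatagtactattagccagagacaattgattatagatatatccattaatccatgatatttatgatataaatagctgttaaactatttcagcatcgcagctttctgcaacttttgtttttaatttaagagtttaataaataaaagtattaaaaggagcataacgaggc
The BEH2 window holds 3 matches to CGTGTG, 1 to CGTGCG and 3 to CACGTG, some of which share bases. Their first bases lie between 135 and 59 bases before the start. BEH2 is an extreme case. It was the single alike higher gene with 4 or more matches to CGTGTG or CGTGCG, a number reached by 2 of all tested genes. Windows of the named lower genes RCI2B, AT3G01190, AT5G48430 and AT5G35940, not shown, hold 1 match each to CGTGTG or CGTGCG. At least 1 CGTGTG or CGTGCG was present in 34 of 237 alike higher genes (14.3%), in 20 of 262 alike lower genes (7.63%) and in 7.02% of 20786 tested genes with a window. In windows that overlap no other gene the shares were 13.8%, 8.29% and 6.8%. CACGTG, which shares bases with some of these matches, was in 10.5% of the alike higher, 5.34% of the alike lower and 7.2% of all windows. These are counts of letters in a window, and binding was not measured.

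The largest alike fall was that of MRD1 (AT1G53480). The gene, named for its lower expression in a methionine-overproducing mutant, had 0.447, 0.0428, 0.0345, 2.87 and 0.0999 CPM in WT/cpd and 0, 0.0417, 0.26, 0.347 and 0 CPM in cpd/cpd, against 52.3, 54.2, 60.2, 51.8 and 51 CPM in WT/WT and 46.1, 48.3, 43.5, 46.3 and 47.3 CPM in cpd/WT. It had 100 counts in all 10 cpd-root libraries, 73 of them in WT/cpd replicate 4, and 11549 in the 10 WT-root libraries (fitted log2 -6.99 ± 0.49; adjusted p = 4.2e-08). Without that library the fitted value was -8.62. RCI2B (AT3G05890), a small membrane protein of a family induced by cold and salt, ranged from 64.4 to 109.8 CPM in cpd roots (median 97) and from 1560 to 2321 CPM in WT roots (median 1881), a 21.6-fold lower level (log2 -4.43 ± 0.12; adjusted p = 2.6e-16). Its neighbour and close copy RCI2A (AT3G05880) had a log2 fold change of -0.24 ± 0.09 and was not called (edgeR adjusted p = 0.15), and reads shared between such copies cannot be separated here. AT1G26160, a predicted metal-dependent phosphohydrolase, ranged from 18 to 23.2 CPM in cpd roots and from 40.6 to 55.7 CPM in WT roots (log2 -1.22 ± 0.06; adjusted p = 2.1e-11).

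In the other direction, AT4G04223, a noncoding RNA, had 16.6, 21.9, 22.2, 17 and 19.7 CPM in WT/cpd and 16.6, 17.7, 16.9, 21.2 and 17.5 CPM in cpd/cpd. It had at most 0.625 CPM in any WT root, with 4698 counts in the cpd-root libraries against 42 in the WT-root libraries (fitted log2 6.64 ± 0.30; adjusted p = 9.3e-12). AT4G18150, annotated as a putative kinase, varied more among cpd roots, with 11.3, 2.1, 0.518, 8.51 and 9.03 CPM in WT/cpd and 8.82, 11.8, 12.1, 1.26 and 17.9 CPM in cpd/cpd. WT roots had at most 0.375 CPM, and 6 of the 10 WT-root libraries had no count (2037 counts in cpd roots against 18 in WT roots; fitted log2 6.67 ± 0.73; adjusted p = 2e-05). MPC (AT3G19350), a gene of a poly(A)-binding protein C-terminal type that is below the expression level set for naming and was chosen after its values were seen, had 0.90 to 5.2 CPM in cpd roots against 0 to 0.125 CPM in WT roots. AT4G14548, a second noncoding RNA, ranged from 4.96 to 8.61 CPM in cpd roots against 0.243 to 1.71 CPM in WT roots (log2 2.93 ± 0.23; adjusted p = 8.5e-08).

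**Figure D3:**
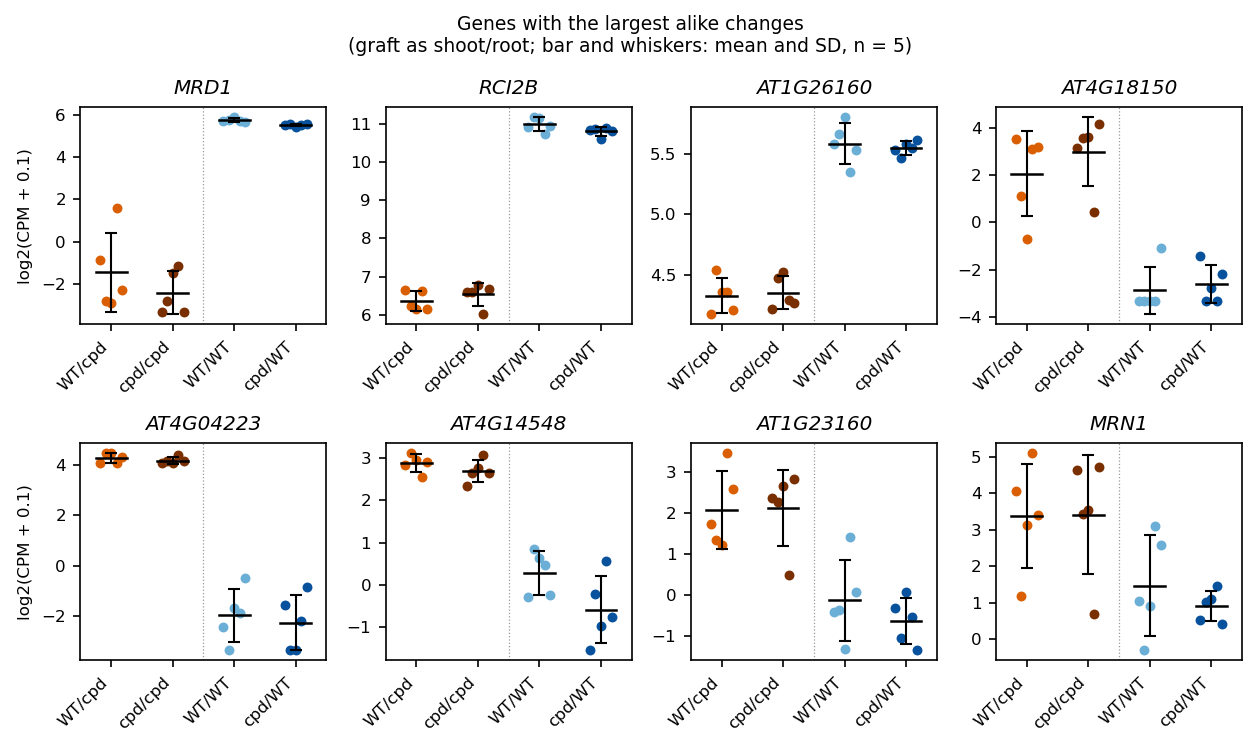
Levels of 8 genes with large alike changes as log2(CPM + 0.1) in each library, with cpd roots left of the dotted line and WT roots right of it; bars and whiskers are mean and SD of 5 libraries. MRD1, RCI2B and AT1G26160 are lower in every cpd root and AT4G18150, AT4G04223 and AT4G14548 higher in every cpd root, while AT1G23160 and MRN1 overlap.

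Other large rises follow. MRN1 (AT5G42600), marneral synthase of a root triterpene cluster, ranged from 1.52 to 34.5 CPM in cpd roots (median 11.2) and from 0.708 to 8.51 CPM in WT roots (median 1.95; log2 2.48 ± 0.53; adjusted p = 0.013). PEN3 (AT5G36150), another triterpene synthase, rose by 1.69 ± 0.40 on the log2 scale (edgeR adjusted p = 0.023). Without WT/cpd replicate 4 its value was 1.47 and it was not called (adjusted p = 0.052). AT1G23160, annotated as an auxin-responsive GH3 family protein, had 1.3 to 10.95 CPM in cpd roots and 0.29 to 2.53 CPM in WT roots. Its log2 fold change was 2.65 ± 0.40 (edgeR adjusted p = 0.00066). AT3G59710 (2.31), AT5G03435 (2.08), AT5G22580 (1.91), the aminotransferase AT4G23590 (1.80) and the acid phosphatase PAP24 (1.74) also rose, with adjusted p between 2e-05 and 0.0026, and the root genotypes did not overlap for AT3G59710, AT5G03435 and AT4G23590. The further large falls were AT2G38823 (-1.37), the homeodomain-like gene MEE3 (-1.31), the ER-lumen DnaJ protein gene ATERDJ3A (-1.27), the lectin gene AT5G35940 (-1.06), the peroxidase gene AT3G01190 (-1.01) and PP2-B6 (-0.95), with adjusted p between 0.00012 and 0.019. AT3G01190 was the most abundant of these, with 87.2 to 190 CPM in cpd roots against 167 to 322 CPM in WT roots. Of these 24 largest changes, 20 were called whichever single library was left out, and PEN3 lost its call in 1 case. The acyltransferase AT2G25150 (2.24), AT3G60700 (-0.93) and the protease AT5G48430 (-1.04) lost theirs in 14, 14 and 12 of 20 cases. The edgeR adjusted p there reached 0.092. Several rises did not appear in WT/cpd replicate 2 and cpd/cpd replicate 4, both least typical libraries. There MRN1 had 2.19 and 1.52 CPM, PEN3 0.9 and 0.563 and PAP24 1.07 and 0.997. AT2G25150 had 0.171 and 0.39 CPM there, and AT1G23160 2.44 and 1.3. None of these values exceeded the highest WT root. AT3G59710, AT5G03435 and AT4G23590 stood above every WT root in both libraries.

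Several suberin genes were lower in cpd roots. Suberin is the waxy polyester laid down around the endodermis, and 7 of its 18 tested genes fell, all alike, against 1.71% of all genes tested that fell; the median of the list was -0.30. ABCG2 (AT2G37360), a transporter of suberin precursors, had 53.6, 41.6, 50.4, 53.8 and 53.4 CPM in WT/cpd and 48.3, 54.6, 49.1, 39.1 and 43.3 CPM in cpd/cpd, against 67.5, 66.1, 58.7, 64.2 and 69.8 CPM in WT/WT and 73.7, 57.6, 67, 67.7 and 59.1 CPM in cpd/WT. All cpd roots were below all WT roots (log2 -0.42 ± 0.07; adjusted p = 0.00075). CYP86A1 (AT5G58860), the fatty acid omega-hydroxylase, ranged from 90.6 to 159 CPM in cpd roots and from 125 to 214 CPM in WT roots (log2 -0.51 ± 0.09; adjusted p = 0.004). The regulator MYB93 (AT1G34670) ranged from 15.5 to 25.4 CPM in cpd roots and from 24 to 39.5 CPM in WT roots (log2 -0.58 ± 0.09; adjusted p = 0.00066). GPAT5 (-0.42), MYB92 (-0.37), KCS2 (-0.30) and KCS20 (-0.26) were the other 4. DESeq2 called 12 of the 18, with 1275 genes called in all. Without the 4 least typical libraries 6 of the 18 were lower, with 3047 genes called in all. The 18 genes summed to 652 to 854 CPM in WT/cpd and 619 to 905 CPM in cpd/cpd, against 785 to 1064 CPM in WT/WT and 975 to 1060 CPM in cpd/WT. In whole roots, fewer cells of a type and less RNA per cell cannot be told apart.

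The Casparian strip is a lignin ring of the same cell layer. Of 9 tested genes 5 fell, among them CASP1, CASP4, ESB1 and PER64, against 1.71% of all genes tested that fell. Without the 4 least typical libraries the count was again 5, with 3047 genes then called in all, against 703. None of the 5 called with every library was alike. Each had its larger value under the WT shoot, and the smaller was less than 0.5 times the larger. The median of the list was -1.0 under the WT shoot and -0.21 under the cpd shoot. CASP4 (AT5G06200), a scaffold protein of the strip, had 5.07, 4.16, 5.14, 5.87 and 5.3 CPM in WT/cpd and 8.07, 7.55, 7.36, 4.16 and 7.65 CPM in cpd/cpd, against 14.2, 11.5, 11.5, 17.2 and 16.3 CPM in WT/WT and 8.92, 9.74, 8.76, 7.06 and 7.28 CPM in cpd/WT. Its root effects differed between shoots (-1.46 under the WT shoot, -0.26 under the cpd shoot; interaction adjusted p = 0.0056), and it was the single Casparian gene with a called interaction. The 9 genes summed to 209 to 324 CPM in WT/cpd and 186 to 329 CPM in cpd/cpd, against 328 to 548 CPM in WT/WT and 302 to 389 CPM in cpd/WT.

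Some starch genes were higher. Of 16 synthesis genes 4 were higher, all alike: SS3 (0.47 ± 0.08), the ADP-glucose pyrophosphorylase subunit ADG1 (0.41 ± 0.08), the phosphoglucomutase PGM (0.28 ± 0.06) and the branching enzyme SBE2.1 (0.21 ± 0.06), with adjusted p between 0.0026 and 0.033. Of 14 breakdown genes 7 were higher, 4 of them alike: the phosphorylase PHS1 (0.36), the phosphatase SEX4 (0.30), the debranching enzyme ISA3 (0.27) and DPE1 (0.19). PHS2 (0.36), the glucan kinase SEX1 (0.31) and DPE2 (0.29) had the larger value under the WT shoot, with no called interaction. The background for a rise was 1.66% of genes tested. SS3 (AT1G11720) ranged from 14.1 to 18.7 CPM in cpd roots and from 8.65 to 15.1 CPM in WT roots, with slight overlap. The medians of the lists were 0.22 for synthesis and 0.22 for breakdown. Without the 4 least typical libraries 7 synthesis and 8 breakdown genes were higher. In that setting 3047 genes were called in all (57.1% of them higher), against 703 with every library.

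Regulators of root meristem identity had 3 of 8 members higher, against 1.66% of all genes tested. MYB56 (AT5G17800, also BRAVO), a transcription factor of the quiescent centre, had 17.4, 14.1, 11.9, 15 and 14.7 CPM in WT/cpd and 16.8, 15.9, 14.9, 15.6 and 14.7 CPM in cpd/cpd, against 8.86, 8.82, 6.54, 5.94 and 6.5 CPM in WT/WT and 9.82, 10.7, 7.45, 9.45 and 7.94 CPM in cpd/WT. The groups did not overlap (1.84-fold; adjusted p = 5.5e-06). PLT2 (AT1G51190; 0.41 ± 0.09; adjusted p = 0.02) was alike, while AIL6 (AT5G10510, also PLT3) was uneven, with 0.18 under the WT shoot and 0.58 under the cpd shoot. WOX5, SCR, SHR, PLT1 and BBM were not called. The summed level of the 8 genes was 147 to 175 CPM in WT/cpd and 155 to 171 CPM in cpd/cpd, against 145 to 157 CPM in WT/WT and 117 to 140 CPM in cpd/WT, and none of 7 mitotic cell cycle genes was called.

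In other lists 1 to 3 members were called, against 3.37% of all genes tested. Lower were PAL4 among 14 monolignol genes (-0.39 ± 0.07, alike), PYL1 among 8 abscisic acid receptors (-0.34 ± 0.09) and BHLH101 among 20 iron deficiency genes (-0.76 ± 0.20). Among 20 wall-loosening XTH genes, XTH16 (-0.70), XTH21 (-0.70) and XTH18 (-0.56, alike) were lower. Higher were SMO2-2 among 16 sterol synthesis genes (0.33 ± 0.08) and EDS16 among 12 salicylate and camalexin genes (0.55 ± 0.14). Of 15 sugar transport and cleavage genes SWEET11 was higher (1.33 ± 0.32) and SWEET16 lower (-0.48 ± 0.11, alike). The adjusted p values lay between 0.0016 and 0.048, and PYL1, BHLH101, XTH18, XTH21 and EDS16 lost their calls in 15, 12, 16, 8 and 7 of the 20 fits that left out 1 library. RCI2B was the single called gene of 5 in its family.

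No member was called in the remaining 13 lists: alpha-expansins, aquaporins, auxin response, flavonol synthesis, gibberellin, indole glucosinolates, jasmonate, mitotic cell cycle, phosphate starvation, photosynthesis, primary wall cellulose, root hair and secondary wall. Without the 4 least typical libraries 3047 genes were called in all. In that setting 6 of the 10 root hair genes were higher and none of those was alike. Of 16 phosphate starvation genes, 11 were called under the WT shoot and 0 under the cpd shoot by edgeR. Over all genes tested these shares were 9.45% and 1.86%, so a count of 0 in so short a list says little. The list medians were 1.42 and -0.23 on the log2 scale, and the median over both shoots was 0.59.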

How the data were processed

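RNA was extracted from whole roots and libraries were made with a directional kit, per the labels' protocols. Per the submitters' processing notes, reads were handled with STAR on TAIR10. For the counting tool, strand setting and annotation release the sources used here give nothing, so overlapping genes on opposite strands are uncertain. The authors deposited raw counts per gene, without normalization, for 32833 gene codes in 20 libraries.

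Counts were analysed with edgeR 4.0.16 in R 4.3.3: default expression filter by group, TMM scaling, robust quasi-likelihood F tests on shoot plus root genotype (17 residual degrees of freedom), Benjamini-Hochberg adjustment over 20862 genes. A fit of 4 group means (16 residual degrees of freedom) gave the effects under each shoot and the interaction. Members and gene lists (30 lists, 365 tested genes) were chosen with earlier results of these data known. Named genes are the 12 largest alike rises and 12 largest alike falls whose mean log2 CPM reaches 1, all tested hormone synthesis and inactivation genes, up to 3 called genes of each other list and the 3 called genes of smallest interaction p; other named genes were chosen after their values were seen. Names and coordinates are from TAIR10.1 (RefSeq; 32548 codes matched). SE was derived from the F statistic. A few items that these rules name are not reported here.

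On simulated counts over 20766 genes, 71.6%, 94% and 98.5% of genes changed 1.5-, 2- and 4-fold under both shoots were called. There were 16 false calls among unchanged genes, and 15 of these counted as alike. Of 100 genes changed 4-fold under the WT shoot alone, 13 were called and 0 counted as alike. The alike rule leaves little room for another result in such genes. Within groups, no 2 libraries agreed within sampling noise (chi-square per degree of freedom 6 to 51.9 over 40 pairs). Alternatives were other scalings, filters and tests (DESeq2 1.42.0, limma 3.58.1 with sample weights), a replicate block, organelle genes left out and libraries left out; those for the interaction were chosen after seeing the data.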

Additional observations from a re-analysis of the deposited data

Results flagged for a closer look

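Library values that stood far from the other 4 of their group, by Dixon's test at a limit of 0.71, occurred 19 times among 264 groups of 5 for the 66 named genes; chance gives about 1 in 20. WT/cpd replicate 4 stood out in 5 genes: it was high for AT4G23590 (26.5 CPM, next 11.6), BR6OX2 (62.1, next 38.6), BR6OX1 (9.14, next 6.15) and MRD1 (2.87, next 0.447) and low for CPD (2.68, next 4.14). cpd/cpd replicate 4 stood out in 4: high for AT4G04223 (21.2 CPM, next 17.7) and low for BR6OX2 (34.6, next 46), CASP1 (33.9, next 62.7) and CASP4 (4.16, next 7.36). WT/cpd replicate 2 was low for ABCG2 (41.6 CPM) and CYP86A1 (90.6 CPM), and WT/cpd replicate 5 was low for SS3 (14.1 CPM). Among WT roots, cpd/WT replicate 3 was high for XTH18 (75.1 CPM) and low for RCI2B (1560 CPM), and cpd/WT replicate 5 was high for PP2-B6 (3.35 CPM). WT/WT replicate 5 was high for AT4G18150 (0.375 CPM, the others 0) and BEH2 (74.7 CPM), WT/WT replicate 4 for AT1G23160 (2.53 CPM), and WT/WT replicate 2 was low for AIL6 (44.2 CPM). Of the 19, 7 lay in the 4 least typical libraries.

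The root effect differed between the shoots, by the interaction test, for 5 named genes. The difference, cpd shoot minus WT shoot on the log2 scale, was -2.48 for AT1G65570, of the pectin lyase type (edgeR adjusted p = 0.0054), -1.56 for the cellulase gene CEL3 (0.0052), -0.96 for the sucrose phosphate synthase gene SPS2F (0.0054), -0.37 for ROT3 (0.039) and 1.21 for CASP4 (0.0056). AT1G65570, CEL3 and SPS2F were called over both shoots, with values of 2.99, 1.69 and 1.05 under the WT shoot and 0.51, 0.12 and 0.09 under the cpd shoot. The calls of CEL3 and SPS2F over both shoots were lost in 10 and 5 of the 20 fits that left out 1 library.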

How the results depend on the processing

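The count of genes called over both shoots (703) was 1275 with DESeq2, 2209 with limma sample weights and 3047 without the 4 least typical libraries. The count of alike genes (499) was 778, 1193 and 1842 in the same order, the count called under each shoot in the same direction (96) was 196, 347 and 503, and 63 with each shoot fitted alone. The interaction count (1613) was 4215 with limma weights and 2968 without those libraries. Leaving out 1 library gave 486 to 1014 called, 353 to 712 alike, 40 to 132 called under each shoot and 1050 to 2407 with an interaction. Under the other alternatives these counts stayed within 1.5 times. The replicate numbers did not pair the libraries: 8 of 30 same-number correlations were over 0.1 (range -0.585 to 0.498) and 5 of 30 were best with their own number; with the replicate block 552 genes were called, 423 alike, 82 under each shoot and 1415 with an interaction. Of 66 named genes 48 kept direction and side of the threshold in all alternatives; in 128 of 1979 cases a call was lost, in 9 gained, and BEN1, not called, changed sign to 0.0249 without the 4 least typical libraries. The causes were not tested.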

Other observations

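Further genes were called under each shoot by itself in the same direction; all named here were chosen after their values were seen. Higher in cpd roots were the DNA demethylase gene DML1 (also ROS1; 0.68), the homeodomain-leucine zipper genes HB-2 (0.54) and HB4 (1.67), the auxin receptor gene TIR1 (0.29), the cytokinin response regulator ARR3 (1.21), the peptide gene CLE5 (1.05), the growth coactivator AN3 (0.44), the blue-light receptor gene PHOT1 (0.35) and the copper transporter gene COPT1 (0.58). Lower were the cytokinin-activating enzyme gene LOG7 (-0.43), the laccase gene LAC13 (-0.51), the regulator NAC058 (-0.32) and CYP86A2 (-0.42), all as log2 fold changes over both shoots with an edgeR adjusted p under 0.05.

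By annotated product, 9 of 53 class III peroxidases, 7 of 35 UPF0497 proteins (the family that holds the CASP genes), 7 of 86 hydroxyproline-rich glycoproteins and 5 of 56 GDSL lipases were lower, 6, 3, 7 and 5 of them alike, while 2, 0, 0 and 1 were higher. Of 170 cytochrome P450 genes 8 were higher and 11 lower, of 16 laccases 1 was higher and 2 lower, and of 17 Pollen Ole e 1 genes 2 were lower. Over all genes tested 1.66% were higher and 1.71% lower, and the families were picked after the counts were seen.

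Among neighbouring tested genes, 14 pairs of alike genes moved in the same direction and 5 in opposite directions. The same-direction pairs held 26 of the 499 alike genes. Over all genes tested, 1.14% were alike and higher and 1.26% alike and lower. The number of pairs that these shares alone would give was not computed. The triterpene cluster genes CYP705A12 (1.19), CYP71A16 (0.95) and MRN1 (2.48) rose together, and the adjacent PELPK1 (-0.49) and PELPK2 (-0.54) fell together. MRD1 (-6.99) lies 1219 bases from MSL4 (0.49), and AT1G26160 (-1.22) lies 566 bases from PERK10 (0.57). Within 1 Mb of CPD, 22 of 472 tested genes were called (4.66%), against 3.22% to 3.67% by chromosome.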
